A study of Mus musculus with 4 samples.

Results

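The choroid plexus epithelium is the sheet of cells in the brain ventricles that secretes cerebrospinal fluid and separates it from blood. Its genes were followed here through 2 bulk messenger RNA libraries of Stra8 knockout (KO) mice and 2 of wild-type (WT) mice. The set holds 32 genes, named for their known secretion, transport and identity roles in that epithelium. It was drawn up with earlier results of these data known. Each gene matched 1 of the 55414 mouse gene identifiers in the count table. All 32 passed the filter on low counts, which kept 21592 genes. All animals carried the pStra8-GFP reporter, green fluorescent protein under the Stra8 promoter. By the series design, GFP-positive cells were sorted from hippocampi, whereas the sample labels give brain as the tissue. Neither source gives age, sex, the knockout allele or the number of animals in a library, so the p-values compare these libraries and their spread, which may be technical. Stra8, the targeted gene, had 7 and 4 reads in the KO libraries and 5 and 1 in the WT libraries, too few to check the genotype labels. The libraries held between 71097417 and 82172740 counts.

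As background, the epithelium makes fluid by moving sodium, chloride and bicarbonate from blood to ventricle, and water follows. Bicarbonate transporters of the SLC4 family carry part of the ions, aquaporin 1 in the apical membrane passes water, and claudins seal the cells to each other. The same cells secrete transthyretin and growth factors into the fluid, and the homeodomain factor Otx2 is needed for their formation and upkeep.

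The 6 genes that best define the epithelium (Ttr, Folr1, Kcnj13, Kl, Clic6 and Otx2) were detected in every library, none below 3.32 CPM (reads scaled to the library total). Their summed level was 436.9 and 429.3 CPM in KO libraries 1 and 2, against 626.4 and 624.3 CPM in WT libraries 1 and 2. Most of each sum was Ttr, with 388.3 and 383 CPM in KO and 560.5 and 559.9 CPM in WT. Transcripts of the epithelium were thus present in the libraries of both genotypes. In bulk RNA, fewer cells of a type and less RNA per cell cannot be told apart, and this holds for every value below.

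Of the 32 genes 12 were called lower in KO and 0 higher (edgeR quasi-likelihood test, adjusted p under 0.05 by Benjamini-Hochberg over all genes tested). Over all genes tested 3.19% were called lower and 3.35% higher. Given how the set was chosen, such shares are a background and not a test of it. The 12 were Ttr, Kl, F5, Enpp2, Ace, Clic6, Slc4a5, Kcnj13, Aqp1, Tmem72, Prlr and Cab39l, and their falls ran from 10.1% for Ace to 46.2% for Slc4a5. The median log2 fold change, KO over WT, was -0.28 over the 32 genes and -0.00038 over all genes tested. In 27 of the 32 genes both KO libraries lay below both WT libraries, against 22.9% of all genes tested. Slc13a4 was the 1 gene with both KO libraries above both WT libraries, and Igfbp2, Col8a1, Cldn1 and Msx1 overlapped. Of the 20 genes that were not called, 18 had a negative log2 fold change. At an unadjusted edgeR p under 0.05, 21 genes were lower and 1 (Slc13a4) higher. The share of all genes at that unadjusted threshold is not given, here or below. The limma-trend fit called 12 lower and 1 higher, against 695 lower and 732 higher over all genes tested. Over all genes tested, DESeq2 called 483 lower and 521 higher. DESeq2 called 9 of the 12, called 0 higher and left out Kcnj13 (adjusted p = 0.0583), Ace (adjusted p = 0.128) and Cab39l (adjusted p = 0.105).

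**Figure D1:**
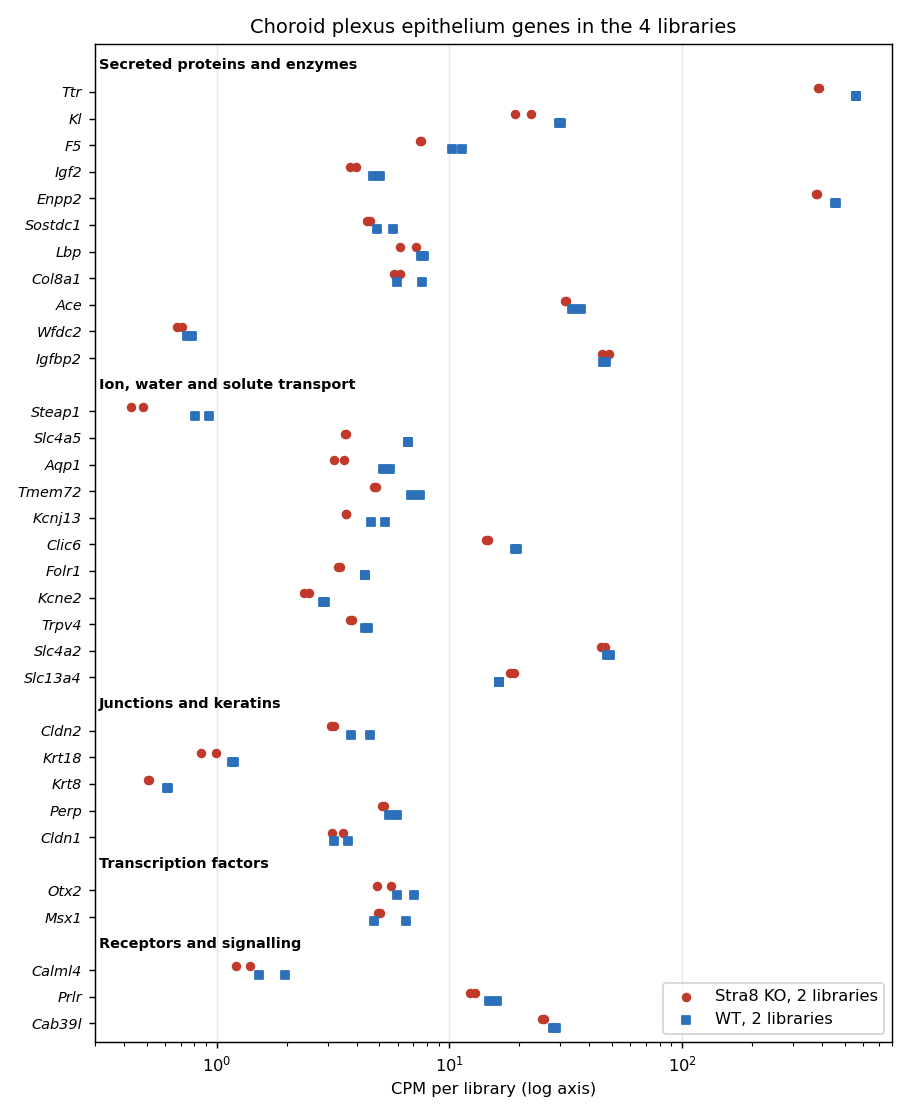
Level of each of the 32 genes in CPM (log axis) in 2 Stra8 KO libraries (circles) and 2 WT libraries (squares), grouped by role. For 27 genes both circles lie left of both squares; Slc13a4 has them on the right, and Igfbp2, Col8a1, Cldn1 and Msx1 overlap.

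Among the 11 genes of secreted proteins and enzymes 5 were lower and 0 higher, with a median log2 fold change of -0.24. Ttr encodes transthyretin, which carries thyroid hormone and retinol-binding protein in the fluid. Its level was 388.3 and 383 CPM in the KO libraries, against 560.5 and 559.9 CPM in the WT libraries (log2 fold change -0.54, SE 0.015, edgeR adjusted p = 1.29e-17). The difference far exceeded the gap between libraries of the same genotype, which was under 6 CPM in both. Kl encodes klotho, the co-receptor for fibroblast growth factor 23 that is also shed into the fluid. Kl had 22.4 and 19.1 CPM in KO, against 29.7 and 30.3 CPM in WT (log2 fold change -0.53, SE 0.059, edgeR adjusted p = 9.54e-07). The KO libraries differed from each other more than the WT libraries did, but neither reached the WT levels. F5, coagulation factor V, had 7.5 and 7.57 CPM in KO and 10.3 and 11.3 CPM in WT (log2 fold change -0.52, SE 0.082, edgeR adjusted p = 0.000138). These 3 log2 fold changes lay within 0.03 of each other.

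Enpp2 encodes autotaxin, a secreted enzyme that makes lysophosphatidic acid, and oligodendrocytes transcribe it as well. It had 381 and 375.9 CPM in KO, against 459.1 and 453 CPM in WT (log2 fold change -0.27, SE 0.016, edgeR adjusted p = 1.19e-11). The 8 oligodendrocyte markers listed moved the other way. All 8 were called higher, with a median log2 fold change of 0.10 and a summed level of 10522 and 10536 CPM in KO against 9906 and 9980 CPM in WT. Their part in the value of Enpp2 was not tested. Ace, the angiotensin-converting enzyme, which endothelium also makes, had 31.8 and 31.4 CPM in KO and 33.6 and 36.7 CPM in WT (log2 fold change -0.15, SE 0.047, edgeR adjusted p = 0.0490). Its call depended on WT library 2, without which the log2 fold change was -0.087 (edgeR adjusted p = 0.568). It was also lost without KO library 1 (edgeR adjusted p = 0.0718) and without KO library 2 (edgeR adjusted p = 0.111).

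The other 6 secreted products were not called. Igf2, insulin-like growth factor 2, which leptomeningeal cells also transcribe, had 3.96 and 3.74 CPM in KO and 4.71 and 5.02 CPM in WT (log2 fold change -0.34, SE 0.113, edgeR adjusted p = 0.0820). Igfbp2, which binds insulin-like growth factors, had 45.1 and 48.3 CPM in KO and 47.3 and 45.8 CPM in WT. The genotypes overlapped, and the 95% interval of its log2 fold change ran from -0.078 to 0.084. Sostdc1, an antagonist of bone morphogenetic proteins, had 4.57 and 4.43 CPM in KO and 5.73 and 4.88 CPM in WT. Lbp, which binds lipopolysaccharide, had 7.21 and 6.14 CPM in KO and 7.77 and 7.55 CPM in WT. Col8a1, a short-chain collagen, had 6.11 and 5.76 CPM in KO and 7.61 and 5.95 CPM in WT. For Sostdc1, Lbp and Col8a1 the edgeR adjusted p was 0.270, 0.286 and 0.386. Wfdc2, a secreted protein with whey acidic protein domains, stayed under 1 CPM in every library, where a change of its size was not detectable (log2 fold change -0.14, SE 0.278).

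Of the 11 genes of ion, water and solute transport 5 were lower and 0 higher, and their median log2 fold change was -0.42. The group and its called genes include Tmem72, for which no transport role is given here. Slc4a5 encodes the sodium bicarbonate cotransporter NBCe2 of the apical membrane. It had 3.58 and 3.54 CPM in KO, against 6.61 and 6.65 CPM in WT (log2 fold change -0.90, SE 0.105, edgeR adjusted p = 2.03e-06). Libraries of 1 genotype lay within 0.04 CPM of each other, and the gap between genotypes was about 3 CPM. Among the 12 called genes this was the largest fold change. Slc4a2, the chloride bicarbonate exchanger AE2 of the basolateral membrane, belongs to the same family. It had 44.8 and 46.5 CPM in KO and 49.2 and 47.4 CPM in WT, and was not called (log2 fold change -0.08, SE 0.037, edgeR adjusted p = 0.248). The 95% intervals of these 2 family members did not overlap, from -1.11 to -0.68 for Slc4a5 and from -0.16 to -0.0049 for Slc4a2. Fastk overlaps Slc4a2 on the other strand at 73.6 to 76.6 CPM, and since no source here says whether counting used strand, reads in the shared stretch cannot be assigned.

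Aqp1, the water channel of the apical membrane, had 3.20 and 3.53 CPM in KO, against 5.16 and 5.54 CPM in WT (log2 fold change -0.67, SE 0.115, edgeR adjusted p = 0.000343). Clic6, a member of the chloride intracellular channel family, had 14.3 and 14.6 CPM in KO, against 19.5 and 19.2 CPM in WT (log2 fold change -0.42, SE 0.060, edgeR adjusted p = 3.44e-05). Tmem72, a transmembrane protein gene with no role given here, had 4.75 and 4.84 CPM in KO, against 7.44 and 6.83 CPM in WT (log2 fold change -0.57, SE 0.098, edgeR adjusted p = 0.000321). In all 3 genes the highest KO library was below the lowest WT library by more than either genotype's own spread. Kcnj13 encodes the inward rectifier potassium channel Kir7.1. It had 3.60 and 3.59 CPM in KO, against 5.27 and 4.62 CPM in WT (log2 fold change -0.46, SE 0.117, edgeR adjusted p = 0.0149). Without WT library 1 this call was lost (log2 fold change -0.36, edgeR adjusted p = 0.191). Gigyf2, whose annotated exons overlap Kcnj13 on the other strand, was at 90.2 to 93.6 CPM in the 4 libraries, and its share of the reads assigned to Kcnj13 was not tested.

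The other 6 transport genes were not called. Slc13a4 encodes a sodium-coupled sulfate transporter that leptomeningeal cells also transcribe. With 18.9 and 18.3 CPM in KO, against 16.3 CPM in each WT library, it missed the threshold (log2 fold change 0.19, SE 0.059, edgeR adjusted p = 0.0505). It was called higher in 8 of 15 other settings, as given in the closing section. Folr1, the folate receptor that carries folate into the fluid, had 3.40 and 3.32 CPM in KO and 4.31 and 4.33 CPM in WT (log2 fold change -0.36, SE 0.119, edgeR adjusted p = 0.0717). Kcne2, a subunit that pairs with the potassium channel Kcnq1, had 2.37 and 2.5 CPM in KO and 2.85 and 2.93 CPM in WT. Trpv4, an osmosensitive cation channel, had 3.80 and 3.73 CPM in KO and 4.49 and 4.35 CPM in WT. Neither passed, with edgeR adjusted p of 0.392 for Kcne2 and 0.309 for Trpv4. Steap1, of a family of metal-reducing membrane proteins, had a log2 fold change of -0.93 but only 35 and 34 reads in KO and 65 and 76 in WT. Both KO libraries lay below both WT libraries and the 95% interval ran from -1.55 to -0.31, but the edgeR adjusted p of 0.0654 missed the threshold. It passed with no filter (edgeR adjusted p = 0.0291) and with the stricter filter (edgeR adjusted p = 0.0370).

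**Figure D2:**
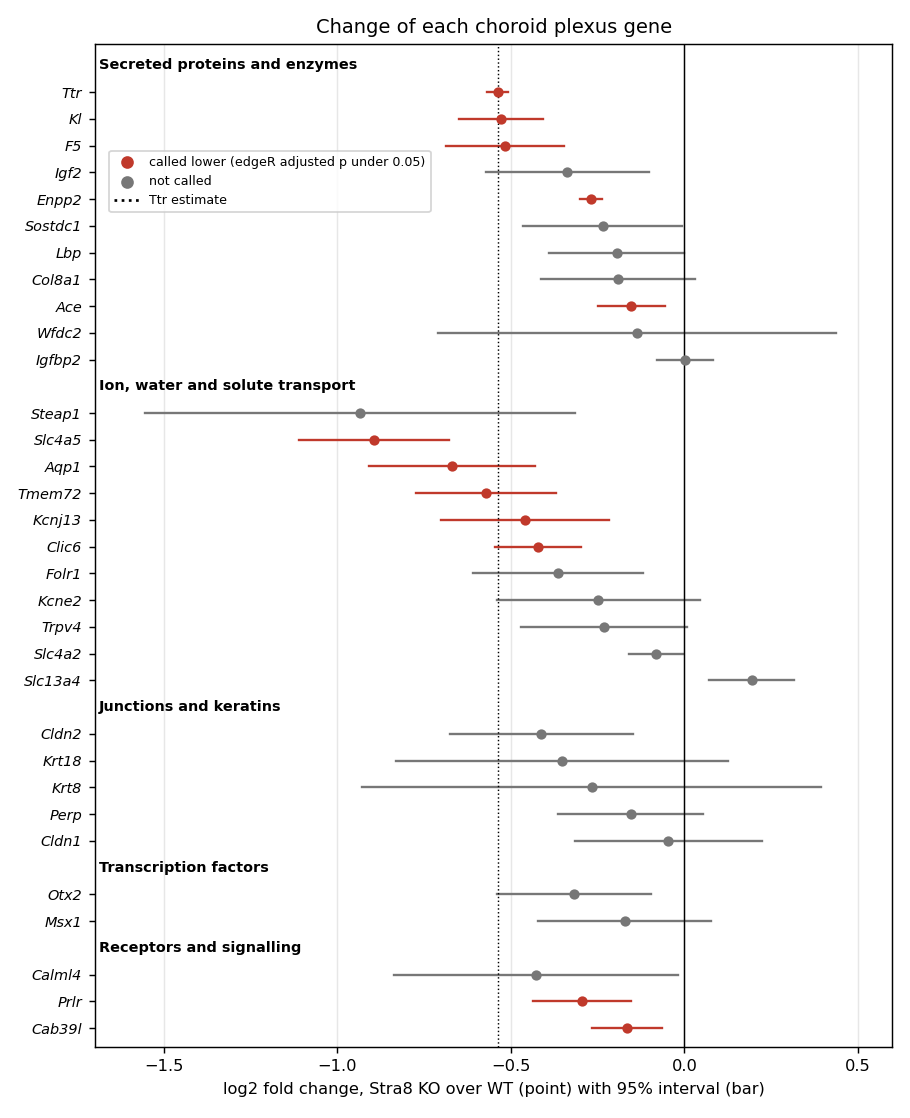
Log2 fold change of each gene, Stra8 KO over WT (point), with its 95% interval from the edgeR fit (bar), by role; called genes are coloured and the dotted line marks the Ttr estimate of -0.54. The interval of Slc4a5 lies left of that line and those of Enpp2, Ace, Prlr and Cab39l lie right of it and left of 0.

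RefSeq promoter windows, of 250 bases before and 50 after a gene start, were at hand for 25 of the 32 genes. Below are those of the 4 called genes with a single such window and the largest falls. They are 5′ to 3′ on the gene's strand, in the GRCm38.p6 build, whereas the counts were made on GRCm39. Capitals mark matches on either strand to TAATCC (bound by Otx factors), GTAAACA (forkhead factors), TAATTG (Msx factors) or TATAAA (the TATA box).
Slc4a5 (chr6:83237125-83237424, + strand): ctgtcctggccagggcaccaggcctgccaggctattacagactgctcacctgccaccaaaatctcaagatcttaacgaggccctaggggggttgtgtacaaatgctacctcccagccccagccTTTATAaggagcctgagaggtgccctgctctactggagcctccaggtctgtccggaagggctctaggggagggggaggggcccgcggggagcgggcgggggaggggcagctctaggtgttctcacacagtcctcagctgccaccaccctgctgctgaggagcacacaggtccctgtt
Aqp1 (chr6:55336049-55336348, + strand): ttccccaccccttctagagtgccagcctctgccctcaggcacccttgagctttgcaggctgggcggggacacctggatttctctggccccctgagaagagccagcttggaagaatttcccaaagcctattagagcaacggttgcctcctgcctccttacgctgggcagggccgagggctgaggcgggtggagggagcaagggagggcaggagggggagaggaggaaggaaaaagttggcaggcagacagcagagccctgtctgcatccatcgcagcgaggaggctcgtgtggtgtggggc
Tmem72 (chr6:116716709-116717008, - strand): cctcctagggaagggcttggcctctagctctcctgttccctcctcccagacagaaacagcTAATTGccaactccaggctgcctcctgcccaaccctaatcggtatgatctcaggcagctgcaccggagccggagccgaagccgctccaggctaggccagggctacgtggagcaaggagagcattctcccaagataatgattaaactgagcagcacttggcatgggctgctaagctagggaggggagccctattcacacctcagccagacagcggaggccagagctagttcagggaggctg
Kl (chr5:150952357-150952656, + strand): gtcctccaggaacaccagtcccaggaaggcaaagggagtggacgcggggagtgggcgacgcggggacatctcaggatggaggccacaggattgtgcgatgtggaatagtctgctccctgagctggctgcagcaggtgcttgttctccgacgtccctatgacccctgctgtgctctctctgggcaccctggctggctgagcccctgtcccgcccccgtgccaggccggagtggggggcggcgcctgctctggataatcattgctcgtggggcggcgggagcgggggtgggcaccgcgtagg

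The 4 windows held 2 matches in all. The Slc4a5 window has TTTATA, the reverse complement of TATAAA, at its bases 124 to 129, and the Tmem72 window has TAATTG at its bases 61 to 66. Relative to the gene start these matches begin at -127 for Slc4a5 and -190 for Tmem72. They are matches of letters, and their use as sites was not tested. Aqp1 and Kl have none of the 4 motifs in these letters. Over the 39 windows of the 25 genes, TAATCC was found in 3 (of Ace, Igf2 and Otx2 itself), against 7.06% of all 32851 mouse windows. TAATTG was found in 5 (of Kcnj13, Tmem72, Cab39l and Otx2), against 8% of all windows. GTAAACA was found in 1, of Prlr, against 3.65%, and TATAAA in 6, against 13.6%. No motif was therefore shared by most of these genes in this window. The median GC content was 58% over the 39 windows and 52.7% over all windows, and the windows of the genes ranged from 35.3% to 73%.

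None of the 5 genes of junctions and keratins was called, at 0 lower and 0 higher, and 2 of them stayed under 1 CPM in at least 1 genotype. At an unadjusted edgeR p under 0.05 it was 1 lower, Cldn2, and DESeq2 and limma-trend each called 0. Their median log2 fold change was -0.27. Cldn2, the claudin of leaky epithelia that forms pores for sodium and water, had 3.18 and 3.09 CPM in KO and 3.79 and 4.55 CPM in WT (log2 fold change -0.41, SE 0.128, edgeR adjusted p = 0.0548). It passed without WT library 1 (log2 fold change -0.54, edgeR adjusted p = 0.0157) and was -0.27 without WT library 2. It also passed with library size alone, no filter, the stricter filter and the replicate block, with edgeR adjusted p from 0.0331 to 0.0479, so that 1 of the 5 genes was called there. Cldn1, a claudin of tight barriers, had 3.49 and 3.13 CPM in KO and 3.20 and 3.66 CPM in WT, and the genotypes overlapped. Its log2 fold change was -0.05 with a 95% interval from -0.32 to 0.22. Perp, a desmosomal membrane protein, had 5.11 and 5.22 CPM in KO and 5.52 and 5.97 CPM in WT (edgeR adjusted p = 0.487). Krt8 and Krt18 encode the keratin pair of simple epithelia. Krt8 had 42 and 36 reads in KO and 50 and 50 in WT, and Krt18 had 70 and 70 in KO and 94 and 97 in WT. At these counts the intervals ran from -0.93 to 0.40 for Krt8 and from -0.83 to 0.13 for Krt18, wide enough to hold both 0 and the value of Ttr.

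The 2 transcription factor genes were not called. Otx2 had 4.86 and 5.60 CPM in KO and 7.07 and 5.96 CPM in WT (log2 fold change -0.32, SE 0.107, edgeR adjusted p = 0.0825). Both KO libraries were lower than both WT libraries, but WT library 2 was nearer to KO library 2 than to WT library 1. It passed without KO library 2 (log2 fold change -0.42, edgeR adjusted p = 0.0181) and without WT library 2 (log2 fold change -0.44, edgeR adjusted p = 0.0124), and was -0.19 without WT library 1. Msx1, a homeodomain factor of the dorsal midline from which choroid plexus arises, had 5.01 and 4.94 CPM in KO and 4.74 and 6.47 CPM in WT. The KO values lay between those of the WT libraries (edgeR adjusted p = 0.530).

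Of the 3 receptor and signalling genes 2 were lower. Prlr, the prolactin receptor, had 12.9 and 12.3 CPM in KO, against 16.1 and 14.8 CPM in WT (log2 fold change -0.30, SE 0.068, edgeR adjusted p = 0.00666). This call was lost without WT library 1 (log2 fold change -0.24, edgeR adjusted p = 0.111). Cab39l, a relative of the kinase scaffold Cab39, had 25.5 and 25.0 CPM in KO and 28.8 and 27.8 CPM in WT (log2 fold change -0.17, SE 0.048, edgeR adjusted p = 0.0390). Leaving out any 1 library ended this call, with edgeR adjusted p from 0.0652 to 0.297. Cdadc1 overlaps Cab39l on the other strand at 52.5 to 54.5 CPM, and reads in the shared stretch cannot be assigned. Calml4, a calmodulin-like protein, had 1.21 and 1.38 CPM in KO and 1.96 and 1.52 CPM in WT (edgeR adjusted p = 0.260).

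The genes did not all fall by the same proportion. With the Ttr value of -0.54 as a yardstick, the 95% intervals of 16 of the other 31 genes held it, and 12 of those 16 did not hold 0. Kl, F5, Clic6, Tmem72, Kcnj13 and Aqp1 were among these 12. As a share of the Ttr level in the same library, Clic6 was at 3.69% and 3.82% in KO and 3.49% and 3.43% in WT. F5 was at 1.93% and 1.98% in KO and 1.83% and 2.02% in WT, and Tmem72 at 1.22% and 1.26% in KO and 1.33% and 1.22% in WT. The shares of F5 and Tmem72 overlapped between genotypes, and that of Clic6 was slightly higher in KO. The interval of Slc4a5 alone lay wholly below the Ttr value, and its share of Ttr was 0.922% and 0.925% in KO against 1.18% and 1.19% in WT. The intervals of 14 genes lay wholly above it, among them those of Enpp2, Prlr, Ace and Cab39l. Enpp2 was at 98.1% of the Ttr level in each KO library, against 81.9% and 80.9% in WT. The differences between genes were not tested, and an interval that holds the Ttr value does not show an equal fall.

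Calls were fewer among genes of low level. Of the 18 genes with a mean of at least 5 CPM 10 were called, and of the 14 below that 2 were called, Aqp1 and Kcnj13. The standard error of the log2 fold change ran from 0.015 for Ttr to 0.320 for Krt8. Per kilobase of annotated exon, Ttr was the highest of the set by a wide margin, with 327.4 and 323 CPM per kilobase in KO and 472.6 and 472.1 in WT. Enpp2 had 65.9 and 65.0 CPM per kilobase in KO and 79.4 and 78.4 in WT, followed by Igfbp2 with 24.4 and 26.2 in KO and 25.6 and 24.8 in WT. Clic6 was at 3.66 and 3.74 CPM per kilobase in KO and 4.99 and 4.91 in WT. Without Ttr and Enpp2, the other 30 genes summed to 295 and 294.2 CPM in KO, against 342.2 and 339.8 CPM in WT.

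**Figure D3:**
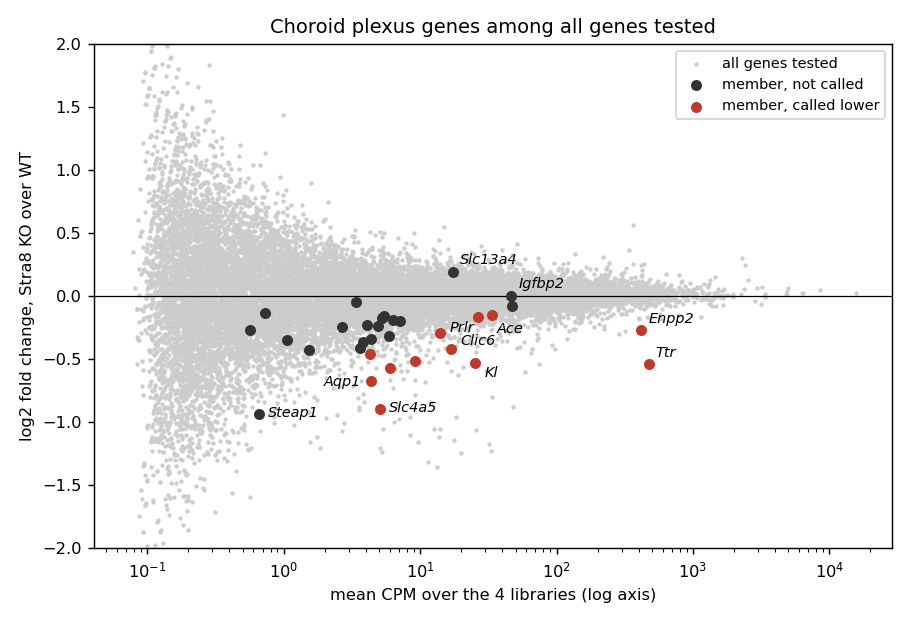
Log2 fold change, Stra8 KO over WT, against mean CPM over the 4 libraries (log axis) for all genes tested (grey) and the 32 choroid plexus genes; 23 genes beyond a log2 fold change of 2 in size lie outside the axis. Ttr and Enpp2 stand below the grey band at high levels, and Steap1, with a similar fold change to Slc4a5, lies within the band at a low level.

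A second list of 50 genes holds other parts of the secretory and barrier machinery, none of them among the 32. Of these, 9 were lower, 3 higher and 38 not called, with a median log2 fold change of -0.02. Without WT library 1 the number lower was 5, and without KO library 2 the number higher was 1. Slc2a1, the glucose transporter GLUT1 of endothelium and choroid plexus, had 107.8 and 103.4 CPM in KO, against 133.8 CPM in each WT library (log2 fold change -0.34, SE 0.025, edgeR adjusted p = 7.45e-10). Trpm3, a cation channel gene, had 126.6 and 126.2 CPM in KO, against 144.5 and 147.6 CPM in WT (log2 fold change -0.21, edgeR adjusted p = 5.41e-07). Slc29a4, the monoamine transporter PMAT, fell by 0.22, Ezr, the microvillar linker ezrin, by 0.14 and the potassium channel gene Kcna1 by 0.12 on the log2 scale. Among those that rose were the organic anion transporter gene Slc22a8 and the Wnt pathway factor Tcf7l2, by 0.21 and 0.16 on the log2 scale, both named after their values were seen.

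Marker lists of neighbouring cells gave the setting of these values. Of 12 genes of ependyma and motile cilia, the ciliated lining that adjoins the choroid plexus, edgeR, DESeq2 and limma-trend each called 0, and 4 were lower at an unadjusted edgeR p under 0.05. All 12 log2 fold changes were negative, with a median of -0.24, and the summed level was 54.2 and 54.7 CPM in KO against 61.3 and 59.8 CPM in WT. Foxj1, the factor that drives motile cilia, had 18.1 and 17.5 CPM in KO and 18.7 and 17.1 CPM in WT. Standard errors in this list ran from 0.061 for Foxj1 up to 0.394, so 0 calls do not set it apart from the choroid plexus genes. Of 12 genes of leptomeningeal fibroblasts the same 3 tools called 0, and 1 was lower (Igf2) and 3 higher at an unadjusted edgeR p under 0.05, with a median of 0.04 and a sum of 164.5 and 160.1 CPM in KO against 156.4 and 154.3 CPM in WT. This list includes Igf2. Of 8 endothelial genes 2 were higher, Kdr and Cldn5, and 0 lower, with a median of 0.03 and a sum of 261 and 259.1 CPM in KO against 258.8 and 253.8 CPM in WT.

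Lists of brain regions and other tissue had medians further from 0. The sum of 8 cerebellar granule and Purkinje cell genes was 294.5 and 289.7 CPM in KO against 436.6 and 441.9 CPM in WT. In that list 7 of 8 were lower, with a median log2 fold change of -1.01. For 7 anterior pituitary genes the sum was 29.4 and 29.2 CPM in KO against 61.7 and 61.9 CPM in WT. Of the 4 that could be tested 3 were lower, with a median of -1.06, and Lhb, Tshb and Pou1f1 were at or near 0 in every library. The 6 dentate granule cell genes summed to 145.1 and 142.2 CPM in KO against 178.5 and 174.7 CPM in WT, and 5 were lower, with a median of -0.71. All 4 Y-linked genes were lower, with a median of -1.24 and a sum of 29.6 and 30.7 CPM in KO against 69.8 and 71 CPM in WT. The part of tissue make-up, or of the sex of the animals behind each library, in the values of the choroid plexus genes was not tested.

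**Figure D4:**
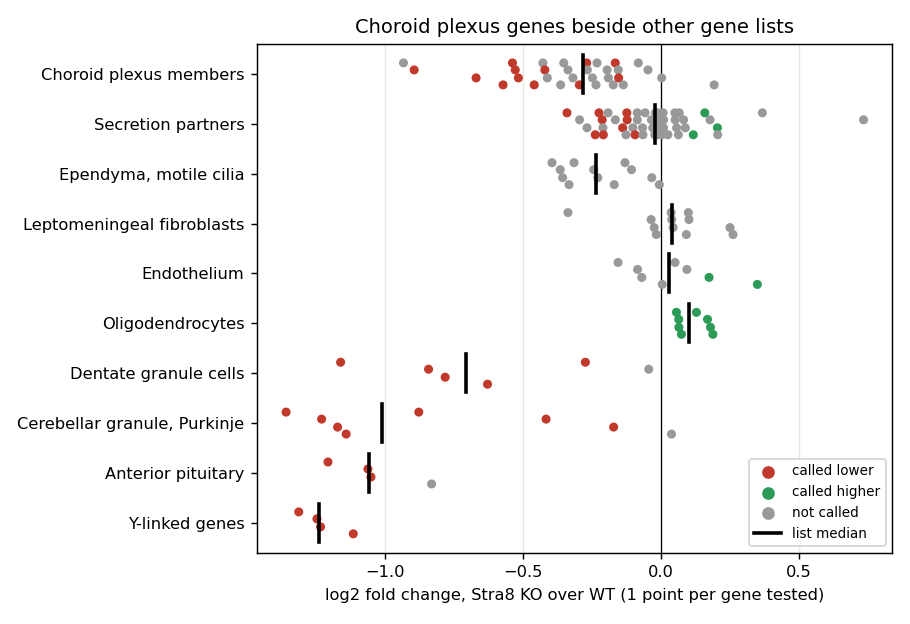
Log2 fold change, Stra8 KO over WT, of each gene tested (points) in the choroid plexus set and 9 other lists, with the list median (bar). The choroid plexus median of -0.28 lies near that of ependyma at -0.24, while the medians of dentate, cerebellar, pituitary and Y-linked genes lie at -0.71 or below.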

How the data were processed

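Bulk messenger RNA of 2 Stra8 KO and 2 WT libraries was analysed from the deposited table of raw read counts per Ensembl gene. The headers of both KO columns end in "-Huang" and those of the WT columns do not. What this suffix marks is not stated, and it cannot be told apart from genotype. The submitters' processing notes name the GRCm39 build and the tools STAR 2.6.1c, featureCounts, FastQC and DESeq2, without roles; annotation release and strand setting are not given. Even numbers made up 72.8% to 74.3% of the values between 1 and 20 per library, as when both mates of a fragment are counted, so reads are not independent molecules. Symbols matched 52081 of 55414 identifiers. The members and lists were chosen with earlier results of these data known, and no list was tested as a set. Every member is accounted for; of other lists, at most 6 called genes with the smallest p are named, with exceptions stated, and 1 gene that this rule takes is not reported here.

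In R 4.3.3, edgeR 4.0.16 kept genes with filterByExpr (minimum count 10), scaled libraries with TMM (factors 0.997 to 1.01) and tested genotype with glmQLFit and glmQLFTest, with no covariate, adjusting over all genes kept. The procedure was tested on simulated data. CPM uses the scaled library size. A standard error is the log2 fold change over the square root of F, and 95% intervals use the moderated degrees of freedom. Exon lengths are those of GENCODE M21 on GRCm38. Motifs were searched in RefSeq windows. Alternatives were DESeq2 1.42.0 and its size factors, library size alone, no filter, at least 50 counts in 2 libraries, limma-trend (limma 3.58.1, prior count 2), dispersion 0, halved counts, X, Y and mitochondrial genes left out, a replicate block, an adjusted p under 0.1, and each library left out. Replicate numbers are shared between genotypes, and deviations of same-numbered libraries correlated at 0.0157 over 21592 genes, so the numbers were not taken as pairs.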

Additional observations from a re-analysis of the deposited data

How the results depend on the processing

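Over 15 alternative settings, 8 of the 12 genes called lower stayed so in every one (Ttr, Kl, F5, Enpp2, Clic6, Slc4a5, Aqp1 and Tmem72). The number of choroid plexus genes called lower ranged from 9 with DESeq2 to 17 with an adjusted p under 0.1. Over all genes tested, DESeq2 called 483 lower and 521 higher, and an adjusted p under 0.1 gave 955 lower and 1000 higher. The replicate block gave 13 lower and 1 higher, and 772 lower and 818 higher over all genes, against 688 and 723 without it; same-numbered libraries share only a number. The number higher was 1 in place of 0 (Slc13a4) with DESeq2 size factors, the stricter filter, limma-trend, dispersion 0, halved counts, X, Y and mitochondrial genes left out, the replicate block and an adjusted p under 0.1. The log2 fold change of Slc13a4 was 0.17 to 0.22 with 1 library left out, where it was never called.

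With 1 library left out, a fit that gives the lone library the spread of the other genotype's pair, the median log2 fold change of the 32 genes ranged from -0.315 to -0.256. For the 50 secretion partners the number lower ranged from 5 to 9 and the number higher from 1 to 4. Of 479 values of single genes 6 changed sign, all of genes that were not called. Igfbp2 had -0.0063 with library size alone and -0.045 to 0.054 with 1 library left out, where Cldn1 had -0.14 to 0.054 and Msx1 -0.38 to 0.072. Wfdc2, Krt8 and Krt18, near 1 CPM or below, have wide intervals that hold 0. That of Steap1, also under 1 CPM, was wide but lay below 0, from -1.55 to -0.31.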
